A study of Arabidopsis thaliana with 24 samples.

Results

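The Aux/IAA proteins are the repressors of the auxin response in plants, and the transcripts of 10 of them were looked for in *Ch1* seedlings moved to low light (LL) or high light (HL). The 10 genes were chosen by name, as IAA1, IAA2, IAA3, IAA7, IAA13, IAA14, IAA16, IAA17, IAA19 and IAA28, out of 11747 genes with counts in either light series. Of these, 7 have counts in both series and are described here. IAA1, IAA2 and IAA3 were not analysed here, nor were the SAUR genes, a family of early auxin targets of which 15 had been listed.

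RNA was measured in whole *Arabidopsis thaliana* seedlings of the *Ch1* mutant, which makes no chlorophyll b, in the Col-0 background at 2 weeks of age. Seedlings were first kept in water for an hour or more and then held in water under 30 µE (LL) or 1000 µE (HL). There were 8 groups of 3 libraries, at 0, 1, 2 and 4 h of each light level, and all 24 libraries are *Ch1*, with no wild type among them. Per the methods the seedlings had been grown in white light with a daily dark period. The intensity of that growth light was above LL and below HL. No group stayed at the growth light or in the dark for the same hours. The light, the time of day and the time in water therefore cannot be told apart within a light level.

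Auxin works by removing these repressors. An Aux/IAA protein sits on an auxin response factor (ARF), the DNA-binding protein at auxin-responsive promoters, and brings in a TOPLESS corepressor that keeps the gene silent. Auxin glues the Aux/IAA protein to its receptor, TIR1 or an AFB protein, which is the F-box subunit of an SCF ubiquitin ligase, and the repressor is then degraded. Many Aux/IAA genes are themselves auxin targets, so their transcripts are widely read as a record of auxin signalling, whereas the protein levels were not measured here.

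The contact with the receptor is a short degron in the middle of the protein, and its codons are shown because they are what makes a member a target of auxin. All 10 listed genes hold the in-frame run of 4 codons GGN, TGG, CCN and CCN that encodes the core of the degron (N is any base), as do 13 of 19 other Aux/IAA genes. Among all 27444 genes with a coding sequence in RefSeq (TAIR10.1), 34 hold it, or 0.124%. The other 6 Aux/IAA genes, IAA20, IAA30, IAA31, IAA32, IAA33 and IAA34, do not hold these letters in frame. The degron codons (capitals) of the 4 members with the most calls are given with 12 bases on each side, 5′ to 3′ on the coding strand.
IAA7: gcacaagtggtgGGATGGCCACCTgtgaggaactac
IAA17: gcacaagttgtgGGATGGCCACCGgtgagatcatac
IAA19: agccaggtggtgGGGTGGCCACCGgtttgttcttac
IAA28: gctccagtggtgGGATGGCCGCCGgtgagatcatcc

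The promoters were searched for 3 short motifs, and the members differ in which of them they hold. The 300 bases before the annotated start of IAA19 (chr3:5263701-5264000, plus strand, TAIR10.1) hold the auxin response element TGTCTC 3 times, first bases at -184, -145 and -128 from the start, and the G-box CACGTG, a site bound by light-responsive factors of the bHLH and bZIP families, at -70. They are printed with these 4 matches in capitals, beside the promoter of IAA28 (chr5:9032904-9033203, plus strand), which has neither motif nor the evening element AAAATATCT.
IAA19: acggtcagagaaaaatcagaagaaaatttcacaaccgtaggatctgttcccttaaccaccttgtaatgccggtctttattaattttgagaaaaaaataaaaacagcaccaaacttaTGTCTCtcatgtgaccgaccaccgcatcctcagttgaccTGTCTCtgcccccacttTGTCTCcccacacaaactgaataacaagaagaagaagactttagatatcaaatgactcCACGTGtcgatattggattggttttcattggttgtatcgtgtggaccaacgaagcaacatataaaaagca
IAA28: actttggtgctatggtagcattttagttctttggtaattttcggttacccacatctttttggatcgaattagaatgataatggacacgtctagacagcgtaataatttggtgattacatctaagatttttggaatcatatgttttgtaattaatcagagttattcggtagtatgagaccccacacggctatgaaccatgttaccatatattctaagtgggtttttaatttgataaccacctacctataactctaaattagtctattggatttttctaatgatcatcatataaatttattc
Both strands were searched. Of 27443 promoters of this length, 13% hold TGTCTC, 7.09% CACGTG and 2.79% AAAATATCT, while 39 (0.142%) hold TGTCTC 3 times or more and 6 of these also a G-box. IAA7 has a CACGTG at -22, IAA1 and IAA3 have TGTCTC once each, and no match to any of the 3 motifs was found before IAA2, IAA13, IAA14, IAA16, IAA17 or IAA28. A match is a run of letters and not a measured binding site.

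The members lie on all 5 chromosomes, and 3 pairs are near neighbours with 1 gene between them. IAA17 (AT1G04250, chr1:1136078-1138663) is 6388 bases from IAA3, IAA7 (AT3G23050, chr3:8194606-8197161) is 12510 bases from IAA2, and IAA14 (AT4G14550, chr4:8347822-8350263) is 10732 bases from IAA1. IAA16 (AT3G04730) is at chr3:1288155-1290891, IAA19 (AT3G15540) at chr3:5264001-5265695, IAA28 (AT5G25890) at chr5:9033204-9035140 and IAA13 (AT2G33310) at chr2:14113025-14116089. IAA13 shares 1176 bases with AT2G33300 on the opposite strand, and whether counting used the strand is not given in the sources used here.

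Counts come from MARS-seq, which reads the 3′ end of each transcript, and levels below are CPM, the counts of a library scaled to a common total with the TMM factors of edgeR. Library totals were 1163870 to 2061753 counts in LL and 1617051 to 2070855 in HL. The later times were set against 0 h of the same light with the quasi-likelihood test of edgeR. A call means that the p-value, adjusted by Benjamini and Hochberg's method over every gene in the table, was under 0.05. A change is given in log2 units, SE is its standard error, and n = 3 libraries per group throughout. The methods on RNA extraction describe the replicates as biological ones, each a pool of whole seedlings.

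The members did not move as one. IAA19 and IAA17 fell within 1 h at both light levels, IAA28 rose steadily to 4 h at both, IAA7 was higher at 1 h of LL, IAA16 was lower at 2 h of LL and IAA13 was higher at 4 h of HL, while IAA14 was not called at any time. At 1 h of LL 4 of 7 members were called, 2 higher and 2 lower, against 19.9% of all genes (9.24% higher, 10.6% lower). At 2 h of LL 4 were called, 1 higher and 3 lower, against 23.5% (11.3% higher, 12.2% lower), and at 4 h of LL 2 were called, 1 in each direction, against 28.9% (13.1% higher, 15.8% lower). At 1 h of HL 3 were called, 1 higher and 2 lower, against 17.6% (8.26% higher, 9.37% lower). At 2 h of HL 3 were called, 1 higher and 2 lower, against 21.8% (9.82% higher, 12% lower), and at 4 h of HL 3 were called, 2 higher and 1 lower, against 27% (13.3% higher, 13.7% lower). The members are few and were chosen with earlier results of these data known, so these counts cannot show an excess over all genes. At 4 h of LL 2 of 7 is close to the share of all genes. The summed level of the 7 members was 970.7 to 1118 CPM at 0 h and 1039 to 1215 CPM at 4 h of LL, and 1066 to 1153 CPM and 1115 to 1261 CPM in HL, so the 0 h and 4 h ranges overlap at both light levels. Most of this sum is IAA7 and IAA16, with means of 371 and 434 CPM at 0 h of LL. It therefore says little about the other members.

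**Figure D1:**
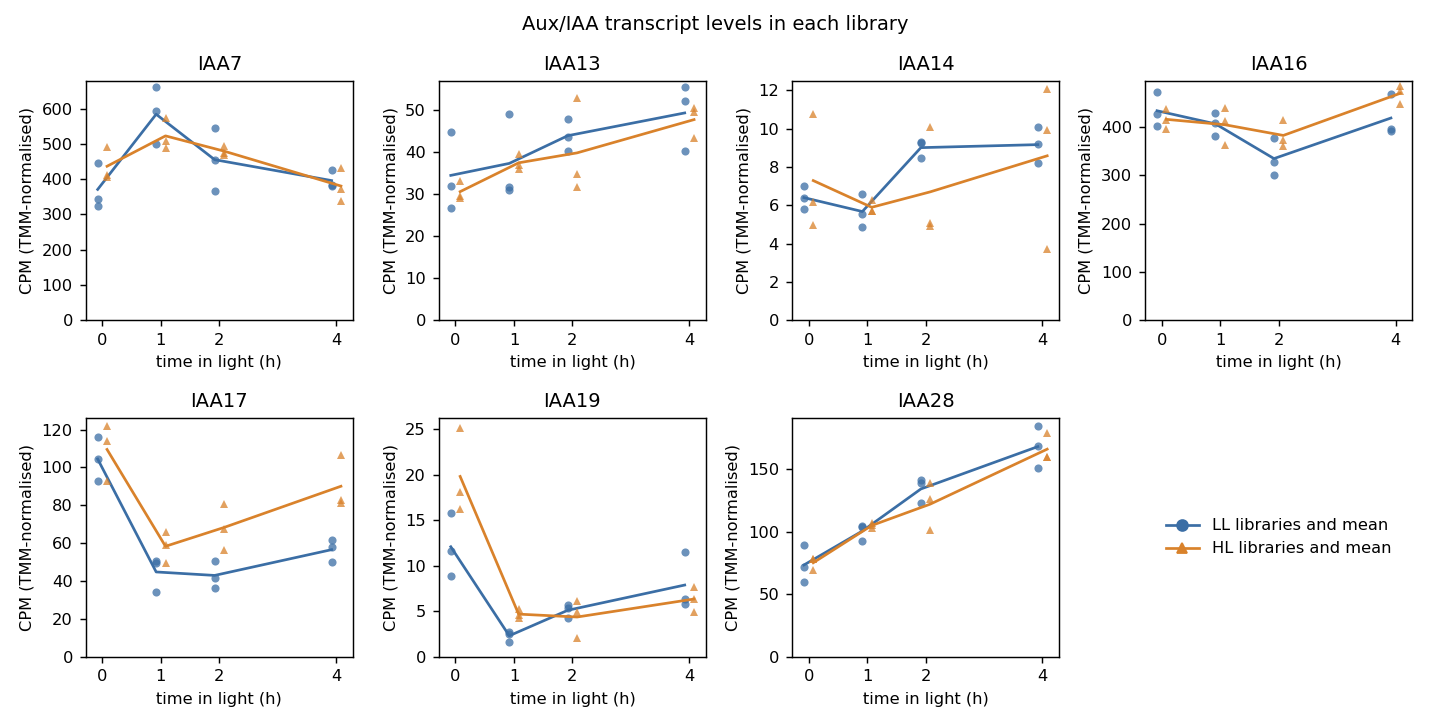
Level of each Aux/IAA transcript (TMM-normalised CPM) against time in light (h), in 24 libraries. Circles are LL and triangles HL libraries (3 each per time), lines join the group means, and each panel has its own axis from 0. IAA19 and IAA17 drop between 0 and 1 h in both lights, and IAA28 climbs from means of 73.3 and 75.1 CPM to 168 and 166 CPM.

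IAA19, also known as MSG2, restrains hypocotyl growth responses such as the bending towards light or gravity, and its transcript is among those that auxin induces quickly. It showed the largest fall of the members. In LL its levels were 8.91, 11.6 and 15.8 CPM at 0 h and 2.53, 2.78 and 1.62 CPM at 1 h. The groups are far apart, and the later libraries rest on 2 to 5 counts each. The change was -2.32 (SE 0.43, adjusted p = 0.000878 by edgeR), or 4.98-fold lower. In HL the levels were 18.2, 25.1 and 16.2 CPM at 0 h and 4.56, 5.25 and 4.26 CPM at 1 h. Every library at 1 h was again below every library at 0 h, and the change was -2.05 (SE 0.33, adjusted p = 0.000153).

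At 4 h IAA19 was still called lower in HL and no longer in LL, a difference between the lights that was not itself called. In LL it was at 4.29, 5.40 and 5.65 CPM at 2 h and at 6.31, 5.85 and 11.5 CPM at 4 h, and the 4 h libraries overlap those at 0 h. The change was -1.2 at 2 h (SE 0.37, adjusted p = 0.0236 by edgeR) and -0.59 at 4 h (SE 0.33, adjusted p = 0.202). From 1 to 4 h of LL it rose by 1.73 (SE 0.45, adjusted p = 0.0153), a comparison in which 2 members were called higher and 1 lower, against 11.8% of all genes (5.32% higher, 6.49% lower). In HL it was at 2.03, 6.18 and 4.90 CPM at 2 h and at 6.40, 7.68 and 4.97 CPM at 4 h, and no library of either time reached the lowest at 0 h. There the change was -2.16 at 2 h (SE 0.33, adjusted p = 6.91e-05) and -1.62 at 4 h (SE 0.32, adjusted p = 0.000613), with 0.43 from 1 to 4 h (SE 0.38, adjusted p = 0.511). The 2 h call of LL was lost without LL 0 h replicate 2 (-1.21, adjusted p = 0.0551), LL 0 h replicate 3 (-0.99, 0.0924) or replicate 1 of LL 2 h (-1.09, 0.0786), as it was with DESeq2 (-1.25, 0.0889). The rise from 1 to 4 h of LL was lost without LL 1 h replicate 1 (1.83, adjusted p = 0.0608), LL 1 h replicate 3 (1.56, 0.0648) or replicate 3 of LL 4 h (1.35, 0.0976), as it was with DESeq2 (1.76, 0.0518).

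IAA17, or AXR3, is the member in which stabilising mutations cause strong auxin resistance and altered root and shoot growth. In LL it was at 104, 116 and 92.8 CPM at 0 h, at 50.7, 34.2 and 49.5 CPM at 1 h, at 36.5, 41.6 and 50.9 CPM at 2 h and at 57.9, 49.9 and 61.9 CPM at 4 h. All 9 later libraries were below all 3 at 0 h. The change was -1.21 at 1 h (SE 0.18, adjusted p = 7.11e-05), -1.27 at 2 h (SE 0.18, adjusted p = 2.72e-05) and -0.89 at 4 h (SE 0.17, adjusted p = 0.000507), all by edgeR's quasi-likelihood test. Between 1 and 4 h of LL its difference was 0.32 (SE 0.18, adjusted p = 0.308), which is not a call.

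In HL IAA17 was at 114, 122 and 92.8 CPM at 0 h, at 59.3, 66.1 and 49.7 CPM at 1 h, at 56.4, 80.9 and 67.6 CPM at 2 h and at 81.0, 106 and 82.9 CPM at 4 h. The libraries at 1 and 2 h lie below those at 0 h, whereas 1 library at 4 h lies within the 0 h range. The change was -0.91 at 1 h (SE 0.17, adjusted p = 0.000891 by edgeR), -0.68 at 2 h (SE 0.17, adjusted p = 0.00674) and -0.28 at 4 h (SE 0.17, adjusted p = 0.258). From 1 to 4 h of HL IAA17 rose by 0.63 (SE 0.17, adjusted p = 0.0176), where 2 members were called higher and 1 lower, against 16.3% of all genes (8.35% higher, 7.92% lower). That call did not survive leaving out replicate 3 of HL 1 h (0.52, adjusted p = 0.0961) or replicate 2 of HL 4 h (0.49, adjusted p = 0.0944).

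IAA28, whose stabilised form blocks lateral root formation, went the other way and showed the largest rise from 0 h among the members. In LL it was at 71.3, 88.9 and 59.7 CPM at 0 h, at 104, 92.5 and 105 CPM at 1 h, at 141, 123 and 138 CPM at 2 h and at 151, 168 and 185 CPM at 4 h. The 4 groups follow each other without overlap. The change was 0.45 at 1 h (SE 0.15, adjusted p = 0.0498), 0.86 at 2 h (SE 0.15, adjusted p = 0.000367) and 1.18 at 4 h (SE 0.15, adjusted p = 8.34e-06), or 2.27-fold, by edgeR's quasi-likelihood test. From 1 to 4 h of LL it rose by 0.74 (SE 0.15, adjusted p = 0.00216).

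In HL IAA28 was at 69.3, 78.2 and 77.7 CPM at 0 h, at 107, 103 and 105 CPM at 1 h, at 101, 126 and 139 CPM at 2 h and at 159, 178 and 159.6 CPM at 4 h. All later libraries were above those at 0 h and those at 4 h above all others, while those at 1 and 2 h overlap. The change was 0.48 at 1 h (SE 0.14, adjusted p = 0.0249), 0.70 at 2 h (SE 0.14, adjusted p = 0.00121) and 1.14 at 4 h (SE 0.14, adjusted p = 4.21e-06 by edgeR), or 2.21-fold, and 0.66 from 1 to 4 h (SE 0.14, adjusted p = 0.00239). Of the IAA28 calls, those at 1 h alone were lost when single libraries were left out. In HL the 1 h call was lost without HL 0 h replicate 1 or any 1 of the 3 libraries at 1 h (0.44 to 0.50, adjusted p = 0.0578 to 0.09). In LL the 1 h call was lost without LL 0 h replicate 1 or 3 or any 1 of the 3 libraries at 1 h, and with DESeq2, RLE scaling, a filter on low counts or a replicate block (0.33 to 0.50, adjusted p = 0.0562 to 0.177 over these 9 fits).

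**Figure D2:**
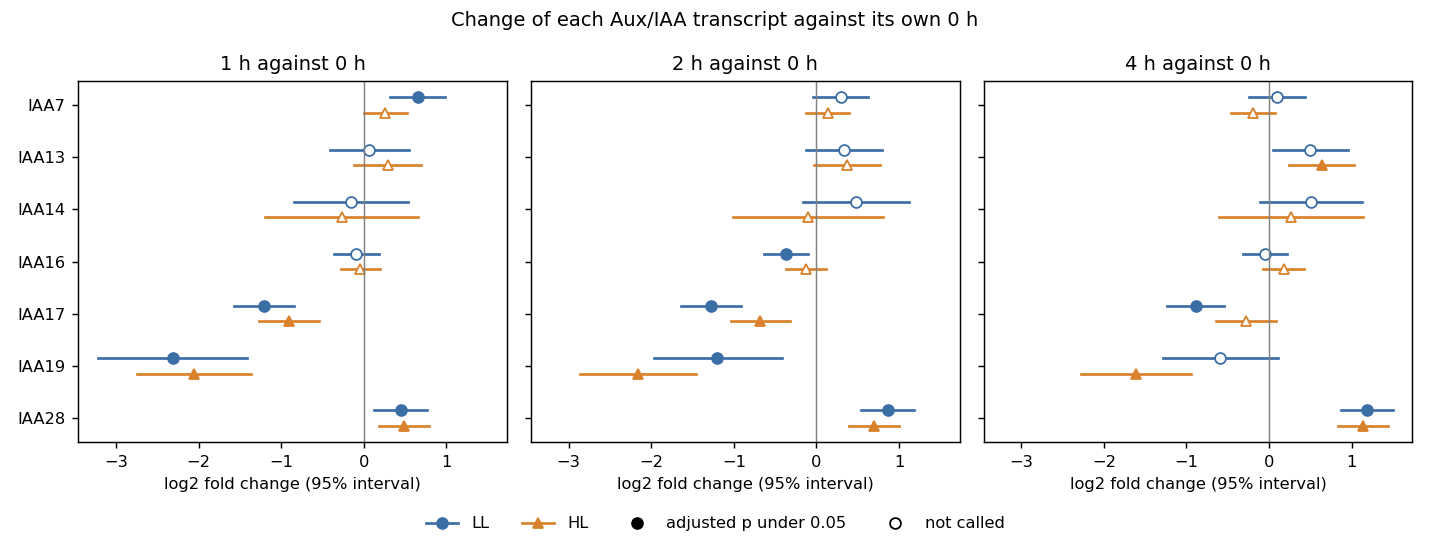
Log2 fold change of the 7 Aux/IAA transcripts at 1, 2 and 4 h against 0 h of the same light level. Points are edgeR estimates, bars 95% intervals, circles LL and triangles HL, and filled points have an adjusted p under 0.05. At 4 h IAA28 is at 1.18 in LL and 1.14 in HL, with IAA17 called lower in LL alone and IAA19 in HL alone, a difference between the lights that was not called for either gene.

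IAA13, a close relative of the embryo patterning repressor IAA12 (BODENLOS), had a similar course to IAA28 at a lower level. In LL it was at 31.8, 44.7 and 26.5 CPM at 0 h and at 40.2, 52.1 and 55.3 CPM at 4 h, and the groups overlap through LL 0 h replicate 2. The change was 0.50 (SE 0.21, adjusted p = 0.0903 by edgeR), and without that replicate it was 0.76 (adjusted p = 0.0253). In HL it was at 33.0, 29.4 and 29.1 CPM at 0 h and at 43.2, 49.4 and 50.3 CPM at 4 h, with no overlap. It rose by 0.64 (SE 0.19, adjusted p = 0.0158), a call that was lost when replicate 3 of HL 0 h (0.60, adjusted p = 0.0569) or replicate 3 of HL 4 h was left out (0.60, adjusted p = 0.0531). At 1 and 2 h the changes of IAA13 were 0.07 and 0.33 in LL and 0.29 and 0.37 in HL, none of them called.

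IAA7, or AXR2, belongs with IAA14, IAA16 and IAA17 to a group of close relatives, and mutations that stabilise it give dwarfed, agravitropic plants. In LL it was at 344, 323 and 445 CPM at 0 h and at 498, 592 and 661 CPM at 1 h, without overlap. It rose by 0.66 (SE 0.16, adjusted p = 0.00709 by edgeR), or 1.58-fold. The rise was brief, with 453, 545 and 367 CPM at 2 h and 382, 380.4 and 425 CPM at 4 h, changes of 0.30 and 0.10 that were not called. In HL IAA7 was at 413, 489.9 and 406 CPM at 0 h and at 572, 507 and 489 CPM at 1 h, and a library of each group lies within the other's range. The change was 0.26 (SE 0.12, adjusted p = 0.174), followed by 0.14 at 2 h and -0.20 at 4 h.

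IAA7 then fell from 1 to 4 h, by 0.56 in LL (SE 0.16, adjusted p = 0.0263 by edgeR) and by 0.46 in HL (SE 0.13, adjusted p = 0.0159), where its libraries stood at 372, 432 and 337 CPM at 4 h. No library at 4 h reached the lowest at 1 h at either light level. The LL call was lost on leaving out replicate 2 or 3 at 1 h, or replicate 1 or 2 at 4 h, of LL (-0.55 to -0.46, adjusted p = 0.0781 to 0.131). The HL call was lost on leaving out replicate 1 at 1 h, or replicate 1 or 3 at 4 h, of HL (-0.44 to -0.38, adjusted p = 0.0555 to 0.09).

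IAA16, whose stabilised form restricts growth and lowers the auxin response, stayed near one level. Its LL libraries were at 404, 427 and 473 CPM at 0 h and at 301, 377 and 327 CPM at 2 h, without overlap. It fell by 0.37 at 2 h of LL (SE 0.13, adjusted p = 0.0422 by edgeR), and this call was lost on leaving out replicate 2 or 3 of LL 0 h or replicate 1 or 3 of LL 2 h (-0.38 to -0.30, adjusted p = 0.0801 to 0.16). By 4 h of LL it was at 393, 396 and 469 CPM, within the range at 0 h or just below it. In HL it was at 415, 397 and 437 CPM at 0 h and at 449, 476 and 487 CPM at 4 h, again without overlap. The HL changes of IAA16 were -0.04, -0.12 and 0.18 at 1, 2 and 4 h, none of them called.

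IAA14, or SOLITARY-ROOT, which blocks the first divisions of lateral roots when stabilised, had few counts, 6 to 22 per library. In LL it was at 7.0, 6.39 and 5.80 CPM at 0 h and at 9.18, 10.1 and 8.21 CPM at 4 h. These libraries do not overlap, but the change of 0.51 (SE 0.29, adjusted p = 0.25 by edgeR) was not called, with a 95% interval from -0.11 to 1.13. In HL the 4 h libraries spread from 3.73 to 12.1 CPM and the change was 0.27 (SE 0.42, adjusted p = 0.699). The HL interval ran from -0.61 to 1.14, and at this depth a change within these intervals is not excluded.

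Groups that do not overlap were common among all genes. In LL 4, 5 and 3 of the 7 members had no overlap with 0 h at 1, 2 and 4 h, against 36.6%, 36.6% and 41.5% of all genes. In HL the counts were 4, 3 and 4, against 33.7%, 35.8% and 38.2%. Between 1 and 4 h they were 4 in LL and 5 in HL, against 30.2% and 31.8%. With a 2-fold limit added to the call, IAA17 and IAA19 stayed called at 1 and 2 h of LL, against 10.4% and 12.5% of all genes, and IAA28 at 4 h, against 16.5%. In HL IAA19 stayed called at all 3 times and IAA28 at 4 h, against 9.01%, 11.9% and 15.7% at 1, 2 and 4 h. Between 1 and 4 h IAA19 stayed called in LL, against 5.63% of all genes, and 0 members in HL, against 7.46%. The median change of the members was 0.10 at 4 h of LL and 0.18 at 4 h of HL, beside -0.01 and 0.04 over all genes.

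Whether HL changed the members differently from LL was asked of the 10349 shared genes, with the 24 libraries fitted together, as the difference between the HL and the LL change. By edgeR's quasi-likelihood test 0 of 7 members were called at 1, 2 or 4 h, against 0.831%, 1.44% and 4.33% of all genes, and DESeq2 also called 0. With the 2-fold limit 0 members stood against 0.763%, 0.995% and 2.92%. The share of all genes with an unadjusted p under 0.05 was not counted, so the next counts have no background beside them. Before adjustment, at a p under 0.05, there were 0, 1 and 2 members. At 4 h these were IAA17, less reduced in HL (difference 0.64, 95% interval 0.15 to 1.14, adjusted p = 0.143), and IAA19, more reduced in HL (-0.997, interval -1.94 to -0.06, adjusted p = 0.25). IAA17 was also the member at 2 h (0.64, interval 0.13 to 1.16, adjusted p = 0.264). For IAA28 the difference at 4 h was -0.01 with an interval from -0.42 to 0.40.

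By edgeR's quasi-likelihood test 0 of 7 members were called between the HL and LL series at 0 h, before the light treatments differed. The share of all genes was 6.37%, and DESeq2 also called 0 members. At an unadjusted p under 0.05 there were 2 members, again with no share of all genes counted. With the 2-fold limit 0 members stood against 4.48%, and 1 member had groups that did not overlap, against 22.9%. That member, IAA19, was higher in every HL 0 h library than in every LL 0 h library, 16.2 to 25.1 CPM against 8.91 to 15.8 CPM, with a difference of 0.80 (interval 0.20 to 1.41, adjusted p = 0.108). IAA7 was the other, with 0.32 (interval 0.02 to 0.62, adjusted p = 0.209). At 4 h the levels of IAA19 overlapped, 4.97 to 7.68 CPM in HL and 5.85 to 11.5 CPM in LL, whereas its means at 0 h were 19.8 CPM in HL and 12.1 CPM in LL.

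**Figure D3:**
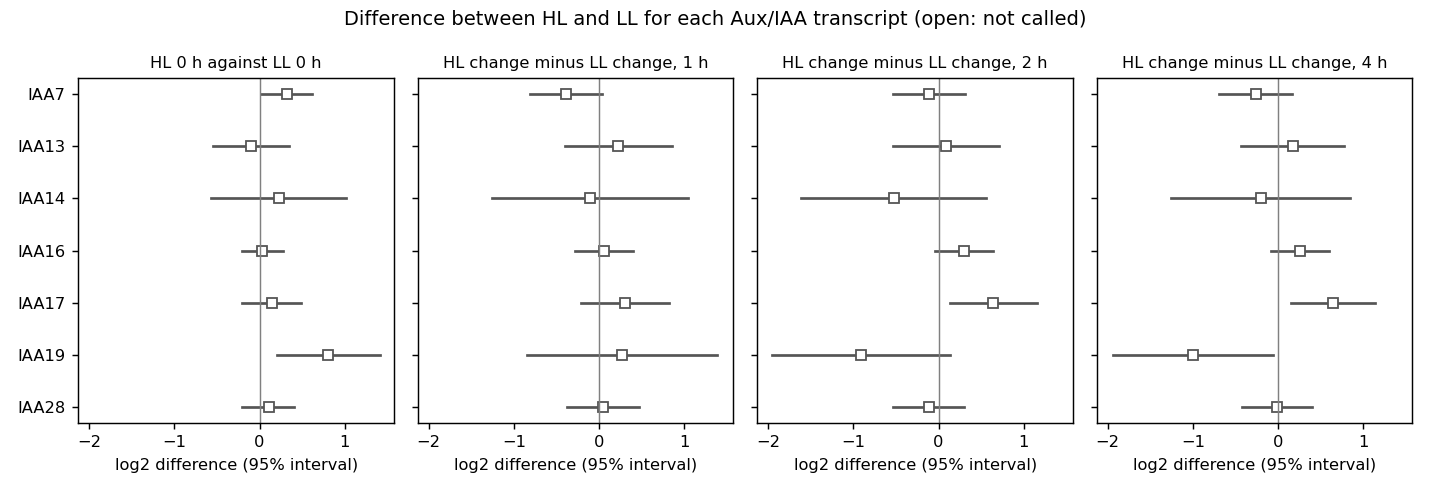
Difference between HL and LL for the 7 Aux/IAA transcripts, in log2 units, at 0 h and as the HL change minus the LL change at 1, 2 and 4 h. Squares are edgeR estimates from the fit of 24 libraries, bars 95% intervals, and open squares were not called. IAA17 (0.64) and IAA19 (-0.997) have intervals at 4 h that leave out 0 before adjustment.

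Whole seedlings mix root and shoot, and fewer cells of a type and less RNA per cell cannot be told apart in such samples. All 6 shoot markers looked for, photosynthesis and photorespiration genes such as RBCS1A and CA1, were present, and their summed level was 22210 to 23370 CPM at 0 h and 9503 to 12340 CPM at 4 h of LL, against 7674 to 15490 CPM and 15310 to 21780 CPM in HL. The summed level of the root markers (7 of 7 in LL, 6 of 7 in HL) was 441.8 to 598.8 CPM at 0 h and 368.4 to 469.2 CPM at 4 h of LL, and 504 to 656.3 CPM and 308.6 to 438.8 CPM in HL. Genes known to answer to touch and handling (4 of 5 in each series) summed to 2546 to 2987 CPM at 0 h and 777.5 to 988 CPM at 4 h of LL, and to 3301 to 3880 CPM and 733.9 to 826.4 CPM in HL, lower at 4 h than at 0 h in every library. At 1 h, when IAA17 and IAA19 were called lower, the touch genes summed to 2425 to 2683 CPM in LL, overlapping 0 h, and to 2060 to 2532 CPM in HL, below it. Most of these sums is TCH3, with a mean of 2408 CPM at 0 h of LL. At 1 h 1 of 4 touch genes was called lower in LL and 3 of 4 in HL, against 10.6% and 9.37% of all genes. Their median changes were -0.44 and -0.955. At that time the shoot markers summed to 11450 to 12350 CPM in LL, below 0 h, with 4 of 6 called lower and a median change of -1.03, and to 8610 to 12810 CPM in HL, within the 0 h range, with 2 of 6 called lower and a median of -0.18. The root markers summed to 472.8 to 549.4 CPM in LL and 388.3 to 566.7 CPM in HL, both overlapping 0 h. They did not move together. Of 7 in LL, 1 was called higher and 1 lower, with a median change of 0.06. Of 6 in HL, 0 were called higher and 2 lower, with a median of -0.41. PYK10, a beta-glucosidase of the root, was called lower with -1.65 in LL (adjusted p = 0.00133 by edgeR) and -1.46 in HL (adjusted p = 0.00148). Mean levels of the root markers CASP1 and PRX64 were instead higher at 1 h than at 0 h of both lights. Only genes with at least 5 reads in a sample were kept. A marker present in a series could therefore not be at 0 in all of its libraries. The part of these shifts in the Aux/IAA results was not tested.

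Of the 19 other Aux/IAA genes, 7 have counts in LL and 6 in HL. IAA12, the relative of IAA13, rose at 4 h of both lights, from 11.5 to 12.4 CPM at 0 h to 22.3 to 26.8 CPM in LL (1.04, SE 0.25, adjusted p = 0.00416 by edgeR) and from 13.4 to 17.2 CPM to 27.1 to 31.3 CPM in HL (0.92, SE 0.23, adjusted p = 0.00568). The libraries do not overlap in either. IAA9, a repressor known in tomato for its part in leaf shape and fruit set, fell at 4 h of LL (-1.25, adjusted p = 0.0272), and IAA27 was called lower at 1 h of LL (-2.22, adjusted p = 0.0344). Both were called lower at 0 h of HL than of LL, IAA9 at 7.17 to 27.9 CPM against 85.9 to 116 CPM (-2.21, adjusted p = 0.0101) and IAA27 at 2.20 to 2.87 CPM against 4.14 to 25.5 CPM (-2.22, adjusted p = 0.0399). The IAA27 values rest on LL 0 h replicate 2, since its counts ran from 5 to 44 per library in that group and were 4 in each library at 0 h of HL. Without that replicate IAA27 differed by -0.85 at 1 h of LL (adjusted p = 0.484) and by -0.84 between the lights at 0 h (adjusted p = 0.64), and the calls were also lost without any 1 of the libraries at LL 1 h or at HL 0 h. The IAA9 call at 4 h was lost on leaving out replicate 2 of LL 0 h or replicate 2 or 3 of LL 4 h (-1.13 to -0.93, adjusted p = 0.0954 to 0.128). Its difference at 0 h was lost without HL 0 h replicate 2 (-1.86, adjusted p = 0.0878) or LL 0 h replicate 2 (-2.08, adjusted p = 0.057). At 4 h 2 of these 7 genes were called in LL, against 28.9% of all genes, with a median of -0.53, and 1 of 6 in HL, against 27%, with a median of 0.01.

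Among the auxin receptors and SCF subunits 1 of 9 was called at 4 h of either light, the receptor TIR1, against 28.9% of all genes in LL and 27% in HL. It rose from 63.9 to 68.8 CPM at 0 h to 86.6 to 111 CPM at 4 h of LL (0.55, SE 0.14, adjusted p = 0.00777 by edgeR) and from 58.1 to 65.4 CPM to 77.9 to 88.5 CPM in HL (0.42, SE 0.14, adjusted p = 0.0274). The HL call was lost on leaving out replicate 1 or 2 of HL 0 h or replicate 1 or 3 of HL 4 h (0.36 to 0.43, adjusted p = 0.0538 to 0.1). The list's medians were -0.12 in LL and 0.34 in HL, the latter the same with AXR1, with 6 counts over the 0 h libraries of HL and 0 over those at 4 h, set to its floor of 3 counts over the group. AFB2, AFB4, AFB5, CUL1, RBX1 and SGT1B had at most 14 counts per library. The medians therefore rest on few counts, and changes of the uncalled genes are not excluded. Of the 5 TOPLESS corepressors, 2 were called at 4 h of LL and 2 at 4 h of HL, against the same 28.9% and 27%. TPL rose at 4 h of both lights, by 0.70 in LL (adjusted p = 0.000394) and by 0.70 in HL (adjusted p = 0.00105). TPR1 was higher in LL (0.52, adjusted p = 0.0209) and TPR3 lower in HL (-0.64, adjusted p = 0.0206), and the medians were 0.36 and -0.10. The TPR1 call was lost on leaving out replicate 1 or 2 of LL 0 h or replicate 1 or 2 of LL 4 h (0.40 to 0.51, adjusted p = 0.0525 to 0.111). The TPR3 call was lost on leaving out replicate 2 or 3 of HL 0 h or replicate 2 of HL 4 h (-0.62 to -0.42, adjusted p = 0.0554 to 0.15).

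Of the 15 ARF genes 10 were counted in each series, and 2 were called at 4 h of LL and 3 at 4 h of HL, against 28.9% and 27% of all genes. At 4 h of LL ARF4, a repressing ARF of leaf polarity, rose by 1.12 (SE 0.33, adjusted p = 0.0153 by edgeR) and ARF6, an activating ARF of flower maturation, fell by 0.69 (SE 0.17, adjusted p = 0.0048). At 4 h of HL ARF3 rose by 1.16 (SE 0.22, adjusted p = 0.000495) and ARF9 by 0.74 (SE 0.25, adjusted p = 0.0305), while ARF2 fell by 0.40 (SE 0.13, adjusted p = 0.031). The ARF4 call was lost without LL 0 h replicate 2 (0.87, adjusted p = 0.0917), that of ARF9 without HL 0 h replicate 1 or 3 or HL 4 h replicate 1 (0.55 to 0.71, adjusted p = 0.086 to 0.17), and that of ARF2 without any 1 of 5 of the 6 libraries compared (-0.41 to -0.35, adjusted p = 0.0602 to 0.118). The list's medians were 0.17 and 0.54. A difference between the HL and LL changes at 2 h was called by edgeR for 1.44% of all genes. Of these auxin lists ARF3, or ETTIN, was the only gene with such a call (1.42, SE 0.36, adjusted p = 0.0408), and it was not called at 1 or 4 h. The call was lost in 11 of the 12 fits that left out a library (1.25 to 1.49, adjusted p = 0.0508 to 0.143).

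Auxin synthesis runs through TAA1, a tryptophan aminotransferase, and the YUCCA flavin monooxygenases, and 4 of 10 such genes were counted. Of these 2 were called at 4 h of LL and 3 at 4 h of HL, against 28.9% and 27% of all genes. TAA1 rose at 4 h, from 5.80 to 15.3 CPM to 24.7 to 29.8 CPM in LL (1.298, SE 0.28, adjusted p = 0.00161 by edgeR) and from 7.83 to 8.61 CPM to 16.5 to 20.3 CPM in HL (1.17, SE 0.31, adjusted p = 0.00789). YUC5 fell in both, from 7.55 to 9.95 CPM to 1.15 to 2.66 CPM in LL (-2.13, SE 0.46, adjusted p = 0.00177) and from 8.39 to 10.04 CPM to 1.60 to 2.74 CPM in HL (-2.17, SE 0.42, adjusted p = 0.000572). YUC6 rose at 4 h of HL (1.99, SE 0.47, adjusted p = 0.00297). The libraries at 0 and 4 h do not overlap in any of these comparisons, but the YUCCA genes rest on at most 18 counts per library in these groups. The list's medians were 1.05 in LL and 1.40 in HL.

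Of 8 auxin transport genes counted in each series, 4 h of LL had 3 called higher and 0 lower, against 13.1% and 15.8% of all genes. At 4 h of HL 1 of 8 was called higher, against 13.3% of all genes. The LL genes were the influx carriers LAX3 (1.204, SE 0.22, adjusted p = 0.000325 by edgeR) and AUX1 (1.03, SE 0.28, adjusted p = 0.0104) and, for efflux, PIN7 (0.89, SE 0.17, adjusted p = 0.000471). The AUX1 call was lost on leaving out replicate 1 of LL 0 h or replicate 2 of LL 4 h (0.80 to 0.88, adjusted p = 0.0548 to 0.0644). The HL gene was the efflux carrier PIN4 (0.99, SE 0.15, adjusted p = 5.26e-05), which had 0.57 in LL (adjusted p = 0.0552). At 1 and 2 h PIN7 was called higher in HL as well (0.759 and 0.773). PIN4 was called higher at 1 and 2 h of LL (0.715 and 0.8), calls lost in 3 and 2 of the 6 fits that left out a library. For a difference between the HL and LL changes 0 of 8 transport genes were called at 1, 2 or 4 h, against 0.831%, 1.44% and 4.33% of all genes. The list's medians were 0.50 in LL and 0.44 in HL. Of the GH3 enzymes, which conjugate auxin to amino acids and are auxin targets, 2 were counted in LL and 1 in HL. By edgeR 0 were called at any time, with 0 at an unadjusted p under 0.05. They had at most 9 counts per library in LL and 6 in HL, so a change of these genes is not excluded.

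**Figure D4:**
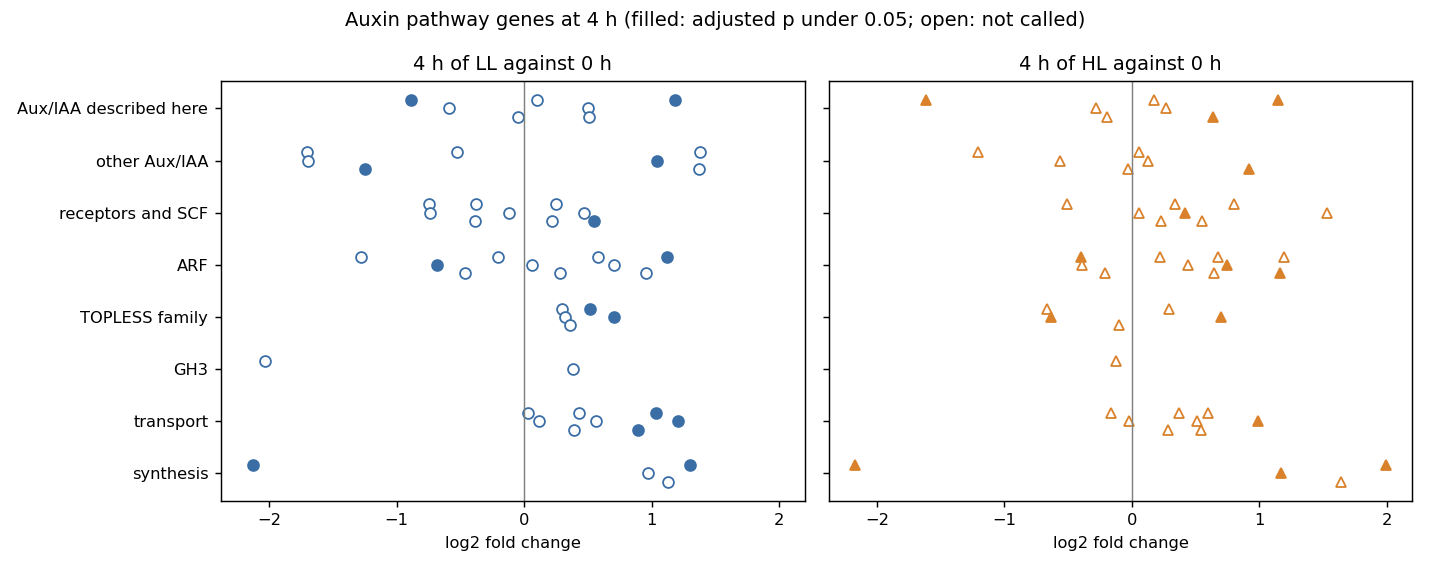
Log2 fold change at 4 h against 0 h of auxin pathway genes, by list, with LL on the left and HL on the right. Each point is 1 gene and filled points have an adjusted p under 0.05. AXR1 in HL is not drawn since all its 4 h libraries hold 0 counts. In the synthesis list YUC5 (-2.13 and -2.17) lies far to the left and TAA1 (1.298 and 1.17) to the right of 0 in both lights, with YUC6 (1.99) farther right in HL.

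The courses of the members were compared as Pearson correlations of mean log2 CPM over the 8 groups, a description in which all points share the same libraries. IAA13 and IAA28 were the most alike pair (r = 0.985), followed by IAA17 and IAA19 (0.792) and IAA16 and IAA17 (0.722), and IAA7 ran most opposite to IAA19 (-0.611). Among 6202 genes with a mean of at least 10 CPM, the courses nearest to IAA28 were those of AT2G38450 (0.989), AT5G64550 (0.986), MOP10 (0.986), IAA13 (0.985) and AT1G78020 (0.984). Those nearest to IAA17 were AT4G29030 (0.99), AT1G77520 (0.982), EXPB3 (0.975), LTL1 (0.968) and AT4G29020 (0.965). EXPB3 is named as a beta-expansin, a protein family that loosens cell walls.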

How the data were processed

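The authors' deposited count tables (1 for LL, 10930 genes, and 1 for HL, 11166 genes) were used. Per the methods and labels, reads were trimmed with cutadapt, mapped with STAR 2.4.2a to Araport 11 and counted with HTSeq-count, keeping genes with at least 5 reads in a sample. Whether molecular identifiers were collapsed, how reads matching several genes were treated and the strand setting are not given in the sources used here. The 48 deposited columns of normalised values, and the authors' fold changes and p-values, were not used.

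Counts were tested with edgeR 4.0.16 in R 4.3.3 (estimateDisp, glmQLFit and glmQLFTest, TMM, no added filter), in 1 fit of 12 libraries per light level for time and 1 fit of 24 libraries for light. P-values were adjusted by the Benjamini-Hochberg procedure over all genes of the fit. Replicates differed by more than sampling noise (chi-square per gene 2.52 to 9.92) and each library correlated with its group mates at a mean r of 0.945 to 0.975. Alternatives were DESeq2 1.42.0, RLE scaling, filterByExpr (minimum count 10), the replicate number as a block, 24 libraries in 1 fit, each library left out, and a 2-fold limit. Leaving out libraries for the called genes of the other auxin lists was added after seeing the data.

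The members and gene lists were chosen with earlier results of these data known. Outside the members, the text names up to 3 called genes per list with the smallest adjusted p at 4 h, and further genes where a list had 5 or fewer calls. Likeness used log2 CPM with a prior count of 2. Names, coordinates and sequences are from RefSeq (TAIR10.1), which matched 11656 of 11747 gene identifiers. The count tables hold no coordinates.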

Additional observations from a re-analysis of the deposited data

Results flagged for a closer look

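The IAA7 libraries at 4 h lay on opposite sides of their 0 h means in the 2 lights. All 3 LL libraries were above the LL mean at 0 h and all 3 HL libraries below the HL mean at 0 h. The LL libraries at 4 h nevertheless lay within the LL range at 0 h, 380.4 to 424.5 CPM against 322.9 to 445.1 CPM. The share of all genes with such a pattern was not counted. The HL change less the LL change was -0.26 on the log2 scale (95% interval -0.69 to 0.16), and it was not called (adjusted p = 0.551, edgeR's quasi-likelihood test). IAA7 was also 0.32 higher at 0 h of HL than of LL (adjusted p = 0.209).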

How the results depend on the processing

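Of 25 called member results, 16 kept their call in every alternative other than the 2-fold limit. Over 300 alternative values of called results, 249 kept the call, 51 lost it and 0 changed direction, and among 806 values of uncalled results 1 passed the threshold. With the 2-fold limit 2, 2 and 1 members were called at 1, 2 and 4 h of LL. The shares of all genes were 10.4%, 12.5% and 16.5%. In HL it was 1 member at 1 h, 1 at 2 h, and 1 higher and 1 lower at 4 h. There the shares of all genes were 9.01%, 11.9% and 15.7%. From 1 to 4 h 1 member was called in LL and 0 in HL, against 5.63% and 7.46% of all genes. Leaving out each library in turn gave counts of 3 to 4, 2 to 4 and 2 to 3 at 1, 2 and 4 h of LL, 1 to 2 from 1 to 4 h of LL, 2 to 3, 3 to 3 and 2 to 3 at 1, 2 and 4 h of HL, 2 to 3 from 1 to 4 h of HL, and 0 to 0 for the comparisons between the lights. The shares of all genes called in these refits were not counted, so these ranges have no background beside them. Same-numbered replicates did not deviate together (r over 0.1 in 4 of 18 pairs, range -0.336 to 0.172, and 7 best with their own number), so the numbers were not taken as pairs. The replicate block changed 1 of 84 member results, IAA28 at 1 h of LL (0.45, adjusted p = 0.0708). The p-values for IAA14 and IAA19 rest on few counts (2 to 35 per library), and 3 libraries per group limit every comparison.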
